A study of Homo sapiens with 15 samples.

Results

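The experiment described here is the depletion of DNMT1 in bulk populations of HCT116 cells, a human colorectal carcinoma epithelial line. It comprises 4 of the 15 whole-genome bisulfite sequencing libraries of the study, chosen by their titles: a Baseline and a Knockdown library from each of 2 populations, R1 and R2. Every population carried a doxycycline-inducible short hairpin RNA against the 3′ untranslated region of DNMT1 (shDNMT1). Baseline cells were cultured for 14 days with no doxycycline, whereas Knockdown cells received 10 ng/mL of doxycycline for the 14 days. The remaining 11 libraries are the shDNMT1 Recovery libraries (2) and Baseline, Knockdown and Recovery libraries of 3 shUHRF1 clones. The R1 and R2 populations are pools of transduced cells and not clones, so a methylation level is an average over cells that may differ in how much DNMT1 they had lost. Bisulfite libraries hold DNA, so depletion of the DNMT1 protein could not be checked in them, and a level by itself does not tell complete loss in some cells from partial loss in every cell. Nothing in the labels says whether R1 and R2 came from separate transductions, so tests measure only the spread between these samples.

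DNMT1 is the maintenance DNA methyltransferase. After replication each CpG that was methylated on both strands carries a methyl group on the parental strand only, and DNMT1, guided by UHRF1, restores the other strand. When DNMT1 is short, methylation is diluted with each division. CpG-rich promoters of active genes are normally unmethylated, whereas gene bodies and intergenic sequence are largely methylated, and cancer cells also hold long partially methylated domains (PMDs) beside highly methylated domains (HMDs).

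A total of 23584363 CpGs of the 29175448 annotated on chromosomes 1 to 22 and X had 5 or more reads in all 4 libraries, and their methylation level (mC) was the methylated reads over all reads. The libraries held 373710741 (Baseline R1), 498923318 (Baseline R2), 520342576 (Knockdown R1) and 536553695 (Knockdown R2) reads at CpGs, with a median of 12 to 18 reads per CpG. At 5 reads the 95% Wilson interval of a single CpG spans 32.6 points on either side, and at 20 reads 20.1 points, counting error only, so values below are means over many CpGs. R1 and R2 differed in 100 kb windows by more than counting noise of independent reads (mean chi-square per window 3.98 at Baseline and 7.15 at Knockdown, against 1). Neighbouring CpGs on a read are not independent, so this check cannot show that the populations differ. Window deviations at Baseline and Knockdown of the same population correlated with r = 0.0127. R1 and R2 were counted as separate samples. Promoters of colon and epithelial genes held intermediate methylation at Baseline (EPCAM 21.6%, CDH1 42.6%, KRT8 52.4%, KRT18 31.8%, CDX2 30.9%) or high methylation (CDX1 97.0%, VIL1 92.6%). The tested promoters of genes of other cell types (CD3D, COL1A1, MYOD1, PECAM1) held 90.0 to 93.9%. These are means over windows from 1000 bp before to 100 bp after the gene start. An intermediate mean therefore does not give the level at the start itself.

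The sequence context in which the most and the least methylation was left is shown by the 6 bases centred on each CpG. Each class below pools a sequence with its reverse complement and counts CpGs without another CpG within 35 bp that were highly methylated, meaning at or above 85% in the Baseline library of the other population. Capitals mark the CpG, and ranks run from 1 (least methylation left) to 120 (most). The 5 of 120 classes with the least methylation left were the following.
lowest, rank 1: aaCGtt
lowest, rank 2: aaCGtc
lowest, rank 3: gaCGtc
lowest, rank 4: aaCGaa
lowest, rank 5: aaCGtg
The 5 classes with the most methylation left were the following.
highest, rank 120: tgCGca
highest, rank 119: agCGca
highest, rank 118: taCGca
highest, rank 117: tcCGca
highest, rank 116: acCGca

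CpGs in aaCGtt kept 38.5% of their Baseline methylation (93.3% to 36.4% in R1 and 93.1% to 35.4% in R2), and those in tgCGca kept 68.7% (96.5% to 66.8% in R1 and 96.4% to 65.9% in R2). Each class is printed as the alphabetically first of a sequence and its reverse complement. In that form all 5 lowest classes have A before the CpG, and all 5 highest have CA after the CpG. On the other strand these read as T after the CpG and TG before the CpG. The order was the same in R1 and R2 for these 10 classes. With the immediate neighbours only, ACGA kept 46.4%, ACGT 46.8% and TCGA 46.9%, against 56.6% for CCGC and 59.5% for GCGC. The R1 and R2 libraries share the genome and the protocol, so their likeness is a description.

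At the level of genes, 3 stretches of 30 bases are printed from promoters named below, 1 from those where the fall in methylation was largest and 2 from those where it was smallest. All are hg38, plus strand, with each CpG in capitals.
TUBB6: CGtCGcttcctcatgtgCGgCGtttctaCG
ZSCAN5A: attcaggacaCGgttccagCGcagtgCGCG
GABRB2: tccaaagaCGCGCGcttactcacacacaCG

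The TUBB6 stretch (chr18:12307247-12307276, 5 CpGs) was methylated at 100% in R1 and 98.9% in R2 at Baseline and at 25.0% and 15.4% at Knockdown, from 31, 87, 84 and 123 reads. In ZSCAN5A (chr19:56368892-56368921, 4 CpGs) 98.4% and 94.3% stood against 76.5% and 71.6%, and in GABRB2 (chr5:161549310-161549339, 4 CpGs) 95.8% and 91.2% stood against 82.1% and 72.9%. The ZSCAN5A and GABRB2 stretches rest on 57 to 107 reads per library. All 3 stretches are dense in CpGs and held over 90% at Baseline, and both Knockdown levels of the TUBB6 stretch lay below those of the other 2. The promoters were chosen by their fall in these same libraries, so this order follows from the choice.

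Genome-wide, mean mC was 75.0% in both Baseline libraries and 40.4% (R1) and 39.6% (R2) at Knockdown, a difference of −35.0 ± 0.610 points (SD, n = 2 populations). The Baseline libraries differed from each other by 0.0367 points. Because the design has 2 populations, the exact two-sided sign-flip permutation test over populations cannot give a p below 0.5, and every comparison of CpG classes below has that value. The share of CpGs at 80% or more went from 67.9% to 5.29% in R1 and from 68.0% to 4.75% in R2.

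Promoters, gene bodies and intergenic sequence differed in level and in loss. Promoter CpGs (in a window from 1000 bp before to 100 bp after the start of protein-coding genes in GENCODE 44, 645609 CpGs) held 29.2% in both Baseline libraries and 13.8% (R1) and 13.4% (R2) at Knockdown. Gene body CpGs (all other CpGs of protein-coding genes) held 79.4% at Baseline and 43.5% and 42.6% at Knockdown. Intergenic CpGs, outside genes of any type, held 73.0% at Baseline and 38.7% and 37.8% at Knockdown. In points, promoters lost the least (−15.6 ± 0.254, SD, n = 2), with −36.4 ± 0.648 in gene bodies and −34.8 ± 0.600 in intergenic sequence. The promoter value was −6.90 points in a shorter window, from 250 bp before to 50 bp after the start. Over CpGs highly methylated in both Baseline libraries it was −49.1 points, against −42.8 in gene bodies and −43.4 in intergenic sequence. Highly methylated CpGs chosen only in the other population gave −48.3, −42.4 and −42.7 points in the same order of classes. The order in points thus depends on which CpGs are included. Over all CpGs, the order relative to the Baseline level was the opposite of that in points. Promoters lost 53.4 ± 0.841% of their methylation, intergenic sequence 47.6 ± 0.809% and gene bodies 45.8 ± 0.799%. The relative loss of gene bodies minus that of promoters was −7.56 ± 0.042 points, and that of intergenic sequence minus that of promoters −5.77 ± 0.032 points (exact permutation p = 0.5 each). Both differences were alike in R1 and R2, but a spread over 2 populations does not show what others would give.

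**Figure D1:**
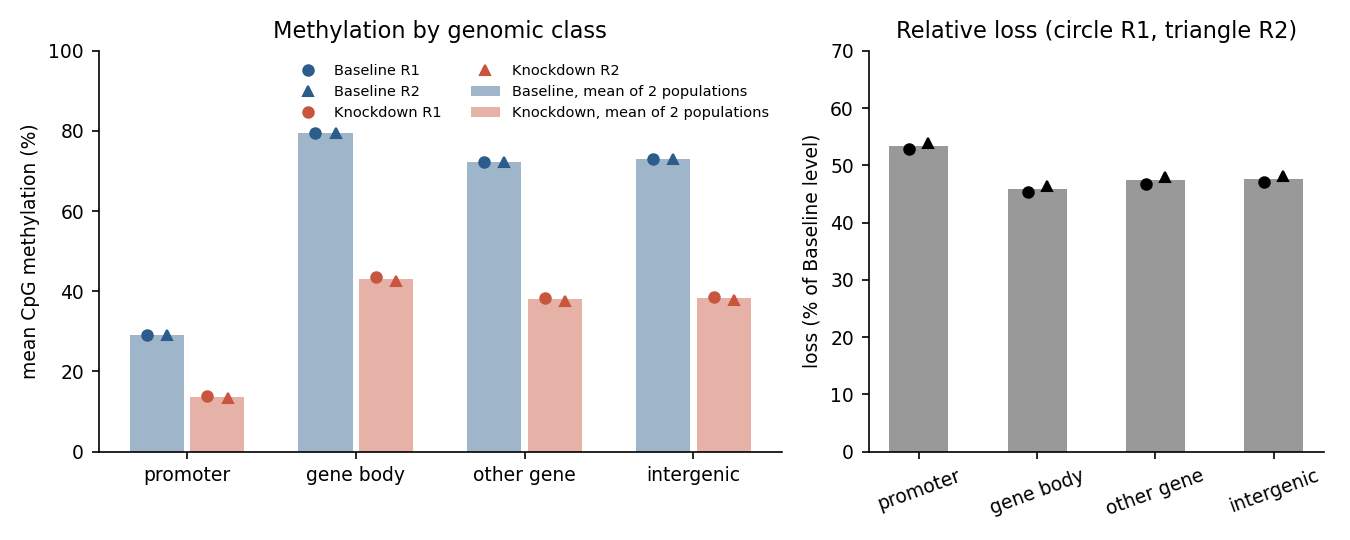
Left, mean CpG methylation (%, y axis) of each genomic class at Baseline and Knockdown, with bars for the mean of 2 populations and points for R1 (circle) and R2 (triangle). Right, the loss as a percentage of the Baseline level. Promoters start at 29.2% and lose 53.4% of it (−15.6 points, or −6.90 in the shorter window), whereas gene bodies start at 79.4% and lose 45.8%.

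Among CpGs that started high, the full promoter window again lost the most. For these shares, CpGs were at or above 85% in the Baseline library of the same population, so choice and loss share a library. Of them, 85.0 ± 0.783% in promoters lost 30 points or more, against 77.1 ± 1.13% in gene bodies and 79.1 ± 1.03% in intergenic sequence. With the promoter cut to 250 bp before and 50 bp after the gene start the promoter share was 79.3%, close to that of intergenic sequence, so the excess over intergenic sequence was not seen in the shorter window. Comparing one Baseline library with the other in the same way gave 0.330 to 0.880%. Chosen instead in the Baseline library of the other population, highly methylated promoter CpGs kept 49.2 ± 0.843% of their Baseline level, gene body CpGs 55.9% and intergenic CpGs 55.1%. The small difference between gene bodies and intergenic sequence in points (−1.62 ± 0.048) turned to 0.545 among CpGs highly methylated in both Baseline libraries, so its direction depends on which CpGs are included. At the other end, promoter CpGs below 10% at Baseline went from 0.841% to 0.441% in R1 and from 0.915% to 0.439% in R2.

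Within gene bodies, coding exons kept the most when CpG spacing was disregarded. They held 80.2% at Baseline and 45.8% (R1) and 44.9% (R2) at Knockdown, a relative loss of 43.5%, against 45.8% in introns (80.8% to 44.3% and 43.4%) and 47.2% in 3′ untranslated regions (86.9% to 46.4% and 45.5%). Among highly methylated CpGs at like spacing, coding exons did not keep more than introns in most classes (62.4% against 63.8% with a neighbour under 10 bp away, 57.0% against 56.8% at 10 to 19 bp, 52.0% against 52.1% at 20 to 34 bp and 51.4% against 51.5% at 35 bp or more). The 5′ untranslated regions beyond the promoter held 19.3% and 19.4% at Baseline and 10.5% and 10.2% at Knockdown. For a profile along genes, 14341 bodies of at least 10 kb were taken from 1000 bp past the gene start. The 10% nearest the start kept 52.3 ± 0.840% and every later 10% kept 54.2 to 54.8%. Loss was therefore close to even along gene bodies, other than at their start.

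In the domains that both Baseline libraries share, HMD CpGs held 92.8% at Baseline and 51.6% and 50.6% at Knockdown, a relative loss of 45% (SD 0.802 points). PMD CpGs started at 54.8% and held 27.1% and 26.5%, a relative loss of 51.2 ± 0.782%. The promoter CpGs did not follow this order. Those in HMDs lost 53.4 ± 0.834% (89.5% to 42.2% and 41.1%) and those in PMDs 47.5 ± 0.942% (62.6% and 62.5% to 33.3% and 32.4%). Promoters thus lost relatively more than gene bodies in HMDs (44.5% in gene bodies) and relatively less in PMDs (51.4%). The domain sets are not alike. HMDs were taken without the unmethylated and low-methylated regions of the authors' lists, and PMDs with those inside them. Chromosome X had 0% of its CpGs in the shared HMDs and 40.1% in PMDs, so HMD values leave it out. Its gene bodies still held 75.0% at Baseline, so the 0% does not mean that it lacks methylated sequence.

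The relative loss also depended on the position within the promoter. Promoters were split by mean Baseline methylation into 6258 methylated (70% or more), 5532 intermediate and 6843 unmethylated (under 20%) promoters, and CpGs were averaged in bins of 100 bp from the gene start. Around methylated promoters the share of methylation left was flat, 52.4% in the bin starting 5000 bp upstream, 52.9% at 800 bp upstream and 54.1% at the start. Around intermediate promoters, the bin starting 800 bp upstream went from 83.1% to 34.1% in R1 and from 83.4% to 33.6% in R2 and kept 40.6 ± 0.485%. The bin at 3000 bp upstream, with a like Baseline (81.6% and 81.5%), went to 42.8% and 41.9% and kept 51.9 ± 0.825%. The bin at 800 bp thus started at nearly the same level as the bin at 3000 bp and was lower at Knockdown in both populations. The bins from 600 to 300 bp upstream kept less still (36.9 to 38.3%) but started lower, from 72.1% at 600 bp to 26.1% at 300 bp in R1.

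Unmethylated promoters showed a dip on both sides of an almost empty core, between bins of unlike Baseline. The bin starting 100 bp upstream held 0.448% (R1) and 0.469% (R2) at Baseline and 0.322% and 0.302% at Knockdown. At 1000 bp upstream 33.1% and 33.3% became 12.2% and 11.8%, so 36.1% was left, and at 1000 bp downstream 33.7% in both became 11.7% and 11.4%, so 34.2% was left. At 5000 bp upstream 83.8% and 83.7% became 45.1% and 44.2%, and 53.3% was left. Over all promoter CpGs at a Baseline of 30 to 40%, 38.1% was left in R1 and 36.6% in R2, so these bins do not separate position from Baseline level.

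**Figure D2:**
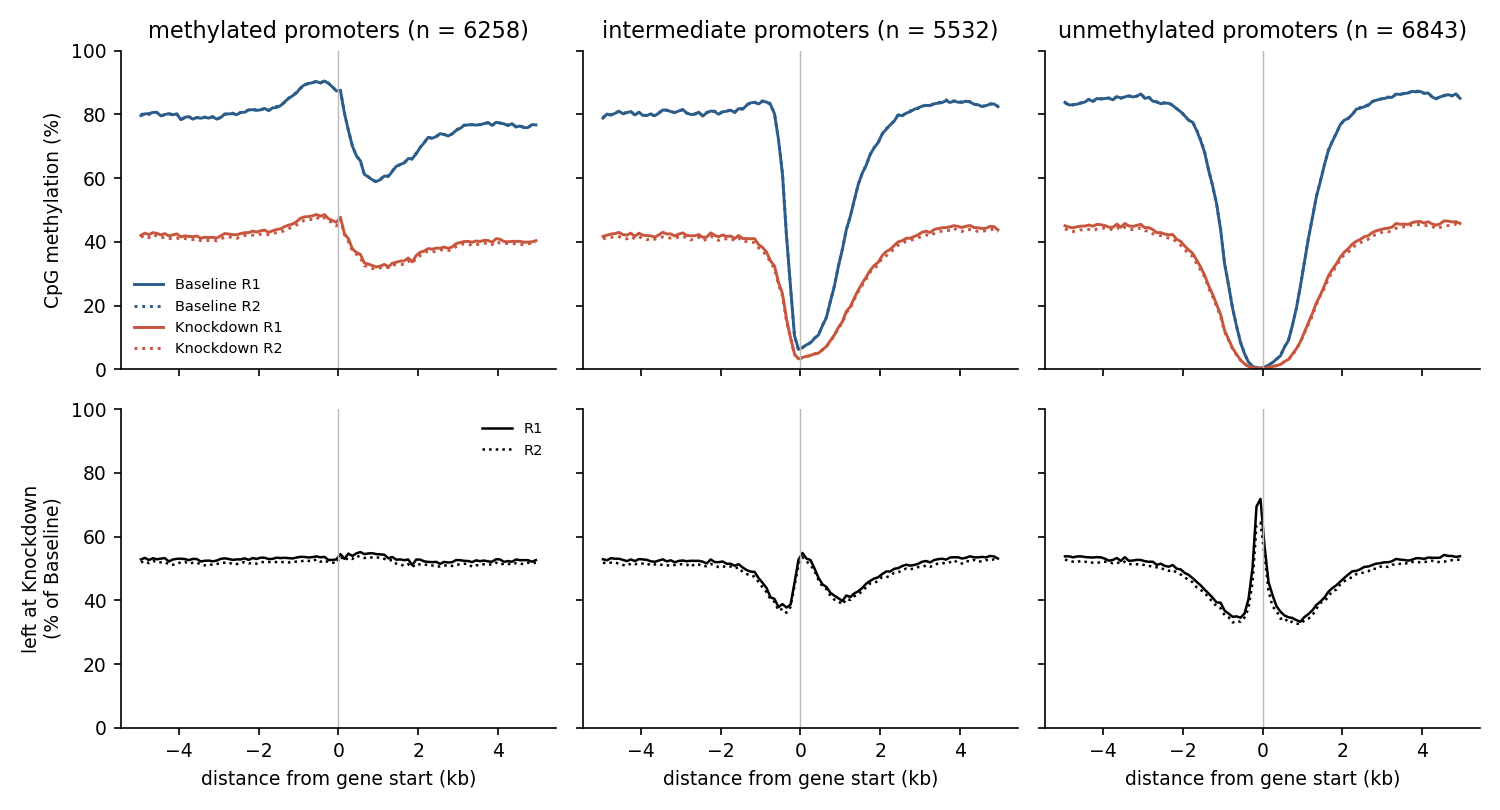
CpG methylation (%, top) and the share left at Knockdown (% of Baseline, bottom) against distance from the gene start (kb, negative upstream) in bins of 100 bp, for methylated, intermediate and unmethylated promoters. Lines are R1 (solid) and R2 (dotted). The share left is flat for methylated promoters and dips on both sides of unmethylated ones, to 33.9% at 800 bp upstream, where Baseline is lower too.

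The CpGs were then restricted to highly methylated ones, chosen in the other population, which narrows the difference in Baseline level and does not remove it. From 1000 to 500 bp upstream of unmethylated promoters, 37.9 ± 1.18% was left, against 53.6 ± 0.913% from 5000 to 3000 bp upstream, a difference of −15.7 ± 0.267 points (exact two-sided permutation p = 0.5, n = 2). In the same band of methylated promoters 54.4% was left, which makes a difference of −16.5 ± 0.403 points between the groups, while the bands of methylated promoters differed by 0.460 ± 0.0629 points. The dip held for CpGs with a neighbour closer than 20 bp (38.4% left) and for those without (37.2%). From 500 to 1000 bp downstream of unmethylated promoters 36.4% was left. The near band of unmethylated promoters started at 93.5% (R1) and 93.2% (R2) and the far band at 96.5% in both, against 95.8% and 95.7% in the near band of methylated promoters. Over all promoter CpGs the share left moved with Baseline in this range, from 42.5% in R1 at a Baseline of 80 to 90% to 50.5% at 90 to 100%, and its part in the difference between bands was not tested. R1 and R2 gave the same order in each comparison of bands.

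The distance from unmethylated DNA was then used directly, for any genomic class. The authors' Baseline domain lists hold 46017 (R1) and 45830 (R2) unmethylated regions (UMRs) called with MethylSeekR, and each CpG was placed by its distance from the nearest UMR of the other population. The distance bands were chosen after the profile around gene starts had been seen. Among highly methylated promoter CpGs, 37.6 ± 1.04% was left less than 250 bp from a UMR, 42.0% at 250 to 500 bp, 46.9% at 500 to 750 bp and 55.7 ± 0.810% at 5000 bp or more. In gene bodies 41.7 ± 0.736% was left less than 250 bp away and 56.6 ± 0.791% at 5000 bp or more. Intergenic CpGs had the shallowest gradient, with 51.0 ± 0.873% against 55.5 ± 0.825%. The differences between the nearest and farthest bands were −18.1 ± 0.233 points in promoters, −14.9 ± 0.0551 in gene bodies and −4.43 ± 0.0483 in intergenic sequence (exact two-sided permutation p = 0.5 each). The nearest bands again started lower, at 93.3% against 95.5% in promoters, 92.2% against 96.3% in gene bodies and 92.2% against 95.3% in intergenic sequence in R1. Far from a UMR promoters and gene bodies differed by only −0.863 ± 0.0197 points, and less than 250 bp away by −4.07 ± 0.307 points. Low-methylated regions, the shorter and partly methylated class of the same lists, had a weaker gradient, with 50.9% left less than 250 bp away and 56.8% at 5000 bp or more, counting CpGs at least 2000 bp from a UMR.

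The gradient differed between the Baseline domains. In HMDs, highly methylated CpGs less than 250 bp from a UMR kept 37.1 ± 1.09% in promoters, 34.3 ± 0.741% in gene bodies and 39.5 ± 1.12% in intergenic sequence, against 55.7%, 57.0% and 56.1% at 5000 bp or more. In PMDs the near and far bands were closer, with 50.8 ± 1.48% and 55.8% in promoters, 53.2 ± 0.718% and 53.2% in gene bodies and 54.4 ± 0.888% and 53.6% in intergenic sequence. Of the intergenic CpGs less than 250 bp from a UMR, 36606 were in PMDs and 8510 in HMDs in R1, and of the promoter CpGs 961 and 21850. The shallower gradient over all intergenic CpGs thus goes with the larger share of them in PMDs, and inside HMDs all 3 classes had the dip. The order of promoters and gene bodies beside a UMR was opposite over all CpGs, where promoters kept less (−4.07 points), and inside HMDs, where they kept more (37.1% against 34.3%).

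**Figure D3:**
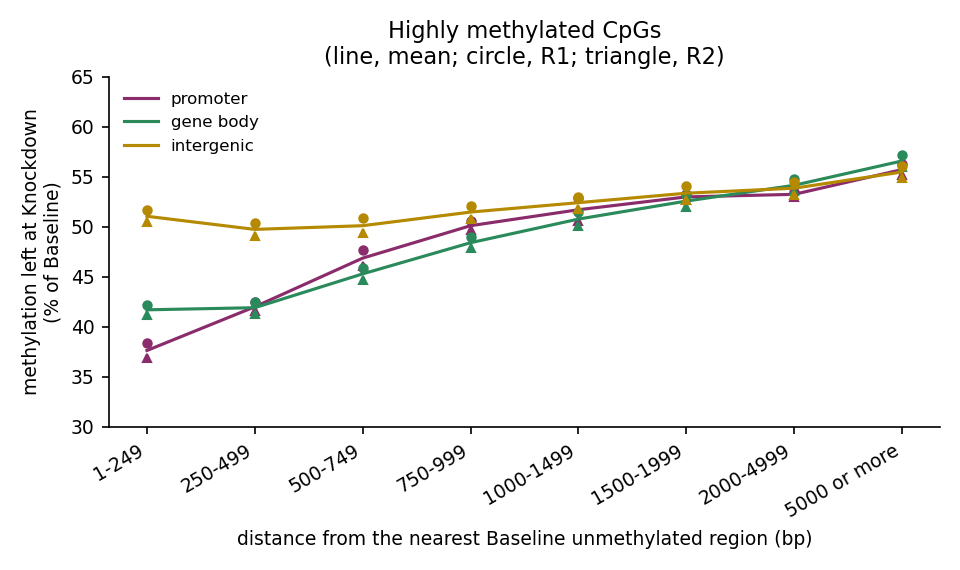
Share of methylation left at Knockdown (% of Baseline, y axis) of highly methylated CpGs by distance from the nearest Baseline unmethylated region (bp, x axis, unequal bands), for promoter, gene body and intergenic CpGs. Lines are means and points R1 (circle) and R2 (triangle). Promoters rise from 37.6% to 55.7% with distance and intergenic CpGs from 51.0% to 55.5%.

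Spacing between CpGs also ordered the loss. Highly methylated CpGs with a neighbour under 10 bp away kept 63.0 ± 0.851%, those at 10 to 19 bp 56.2%, those at 20 to 34 bp 51.6% and those at 35 bp or more 51.2%. Gene bodies (63.4%, 56.6%, 51.9% and 51.4%) and intergenic sequence (62.6%, 55.7%, 51.1% and 50.9%) were nearly the same, and promoters were lower at every spacing (53.2%, 47.9%, 44.4% and 45.4%). In the densest class, promoter CpGs in HMDs kept 52.3% against 64.2% in gene bodies, whereas in PMDs they kept 61.0% against 59.1%. In HMDs the densest promoter CpGs thus kept less than the densest gene body CpGs, and in PMDs they kept slightly more.

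Region by region, the methylated and unmethylated reads of each promoter were summed and tested with edgeR's quasi-likelihood test with the population as a block (Benjamini-Hochberg adjusted p under 0.05). Of 18633 promoters tested, 16479 were lower at Knockdown (88.4%) and 6 were higher (0.0322%). With the promoter cut to 250 bp before and 50 bp after the gene start, 4554 of 14287 were lower. All 6258 methylated promoters were lower, with a median change of −42.1 points and a median of 52.7% left (5th to 95th percentile 37.3 to 67.1%). R1 and R2 changes correlated across all tested promoters with r = 0.936, a description across promoters of the same libraries. Of the 2375 promoters under 2% at Baseline, 545 were lower. Against the genome-wide change in log odds (log2 −2.08), 25.6% of all tested promoters fell more and 14.4% fell less; of the methylated promoters 4690 fell more and 10 fell less. On the log-odds scale a region with a higher Baseline falls more for the same share lost, so these counts follow the Baseline level as well as the loss. The 10 that fell less against the genome became 7 without Baseline R1, 6 without Baseline R2, 5 without Knockdown R1 and 3 without Knockdown R2.

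The 8 methylated promoters with the largest fall were those of TUBB6, RHBDL1, STK3, SUPT4H1, ASCC1, STK24, CLUH and AIFM3, which fell by 68.0 to 75.8 points and kept 20.2 to 26.3%. TUBB6 encodes a β-tubulin, RHBDL1 a rhomboid-like protease, STK3 a Hippo pathway kinase and SUPT4H1 a transcription elongation factor. The TUBB6 promoter (chr18:12306669-12307769, 45 CpGs) held 92.7% and 93.5% at Baseline and 23.4% and 20.8% at Knockdown. Its change was −71.0 ± 2.38 points (log2 odds −5.59, SE 0.317, edgeR adjusted p = 1.9e-10). RHBDL1 (chr16:674671-675771, 72 CpGs) held 95.1% and 94.7% against 11.8% and 26.5%, and its populations differed the most of the 8 (SD of the change 10.6 points). SUPT4H1 (chr17:58352993-58354093, 15 CpGs) held 85.6% and 85.0% against 18.0% and 16.6%, the closest pair of populations of the 8. In each of the 8 both Knockdown values lay far below both Baseline values.

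STK24, a relative of STK3, went from 93.0% and 90.2% to 25.9% and 19.5%, and CLUH, which binds mRNAs of mitochondrial proteins, from 93.8% and 91.8% to 22.8% and 25.3%. The 8 windows were not screened for repeats, in which reads can be misplaced, and that of ASCC1 may hold such sequence. Of the 8 promoters, 6 lay within 500 bp of a UMR in both Baseline libraries, TUBB6 at 41 bp in R1 and SUPT4H1 at 19 bp. RHBDL1 and AIFM3 lay 3557 and 5823 bp away. The rule that named these promoters used the fall itself, so their falls are a description. Promoter windows sit at the annotated 5′ gene end, which need not be the start a cell uses.

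The 8 methylated promoters with the smallest fall were those of C8orf34, ZSCAN5A, GABRB2, TMEM132D, GPRASP1, ADARB2, POU4F3 and ASXL3, which fell by 17.4 to 22.1 points and kept 69.1 to 79.0%. GABRB2 encodes a GABA-A receptor subunit, ADARB2 a relative of the RNA-editing deaminases and POU4F3 a transcription factor of inner ear hair cells. ZSCAN5A, a zinc finger gene (chr19:56368283-56369383, 45 CpGs), held 69.9% and 70.1% at Baseline and 50.2% and 50.6% at Knockdown (−19.6 ± 0.129 points, log2 odds −1.20, SE 0.249, edgeR adjusted p = 0.00019). GPRASP1 on chromosome X held 96.8% and 99.2% at Baseline and 77.1% and 77.7% at Knockdown, so it kept the most of the 8 (79.0%). Its Baseline was near full, whereas GABRB2 (73.9% and 66.9% to 56.9% and 46.3%) and ADARB2 (67.5% and 75.4% to 44.7% and 54.2%) started near the lower limit of the methylated group. ZSCAN5A overlapped a UMR and GABRB2 lay 428 bp from one, and the other 6 were not within 500 bp of a UMR in both libraries.

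**Figure D4:**
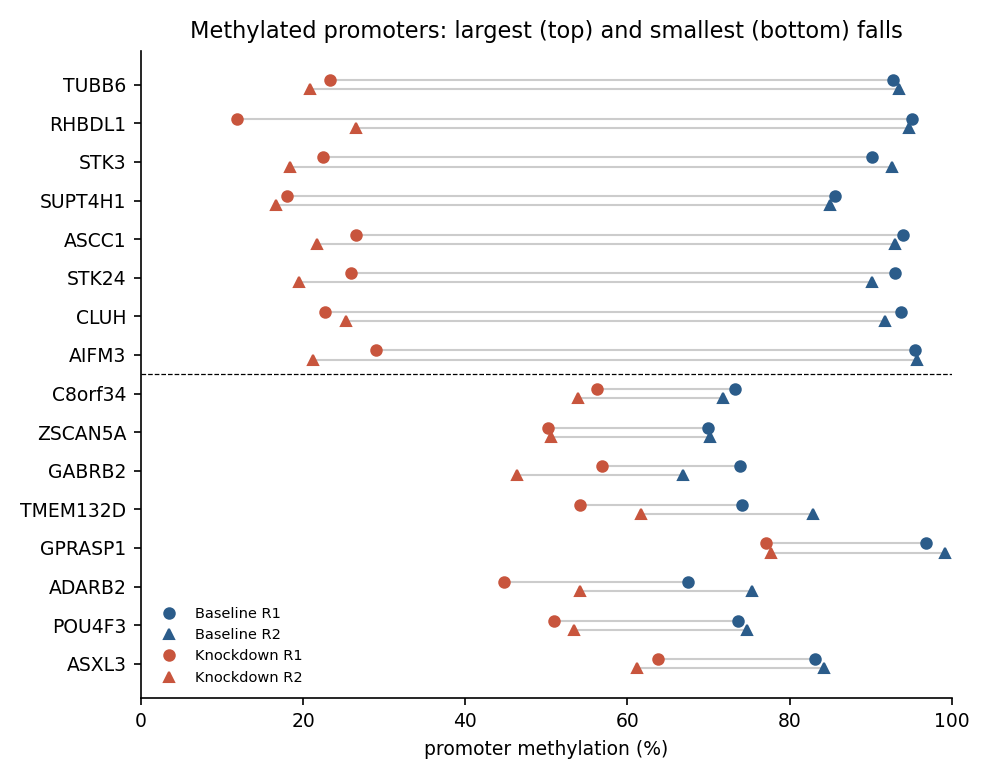
Promoter methylation (%, x axis) of the 8 methylated promoters with the largest fall (top) and the 8 with the smallest fall (bottom), with Baseline and Knockdown values of R1 (circle) and R2 (triangle). TUBB6 goes from 92.7% to 23.4% in R1, whereas GPRASP1 goes from 96.8% to 77.1%.

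Across all methylated promoters, 648 (10.4%) lay within 500 bp of a UMR or overlapped one in both Baseline libraries and kept a median of 43.2%, while the other 5610 kept 53.5%. Medians were 44.1% and 54.0% in R1 and 42.5% and 53.0% in R2. By CpG density, promoters with under 1 CpG per 100 bp kept a median of 50.5% (n = 1376), those with 1 to 2 51.5%, with 2 to 4 52.9%, with 4 to 6 57.0% and with 6 or more 58.0% (n = 533). Dense methylated promoters thus kept more, and promoters beside unmethylated sequence kept less.

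The 6 promoters called higher were those of DVL1, PATL2, SF3A2, SLC25A25, NCBP1 and TSTD2, and all were nearly unmethylated in every library. DVL1, a Wnt signalling adaptor, had 0% in both Baseline libraries (563 and 586 reads) and 0.461% and 0.308% at Knockdown (651 and 974 reads). SLC25A25 went from 0.0996% and 0.0710% to 0.363% and 0.567%. The NCBP1 and TSTD2 windows overlap on chromosome 9 and share reads. These differences are under 0.5 points on average, a few methylated reads each, and 7 promoters were higher at an unadjusted p under 0.05 while limma called 35. The calls of DVL1 (without Baseline R1 or Knockdown R2), PATL2 (without Baseline R2 or Knockdown R1), SLC25A25 (without Baseline R2 or Knockdown R2), SF3A2 (without any library but Knockdown R1) and NCBP1 (without any of the 4) were lost when 1 library was left out.

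Gene bodies, tested as regions from 1000 bp past the gene start, fell almost without exception. Of 18830 tested, 18797 were lower (99.8%) and edgeR called 0 higher, with 0 at an unadjusted p under 0.05 and 0 by limma. Their median change was −39.7 points and a median of 53.9% was left. Against the genome-wide log-odds change 79.5% of all tested bodies fell more and 10.7% fell less; of the 15837 methylated bodies 14854 fell more and 89 less. These counts too follow the Baseline level. The 89 became 41 without Knockdown R1 and 2 in a fit of all 15 libraries. Short methylated bodies kept less than long ones, with a median of 50.5% under 2 kb (n = 561), 51.6% at 2 to 10 kb, 54.3% at 10 to 50 kb, 55.9% at 50 to 200 kb and 55.7% above that. By CpG density they kept a median of 55.7% under 1 CpG per 100 bp, 54.8% at 1 to 2, 51.8% at 2 to 4 and 52.2% at 4 or more. These medians were lower in denser bodies, unlike those of promoters, but body length and distance from a UMR were not held fixed. Single highly methylated gene body CpGs went the other way, with 63.4% left with a neighbour under 10 bp away and 51.4% at 35 bp or more.

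Bodies with the largest fall belonged to CLIC3, NOG, CAVIN3, NAT14, SOX18, C3orf80, BEX3 and PPDPF and were all shorter than 2 kb. CLIC3, of the chloride intracellular channel family (chr9:136994608-136995568), held 95.1% and 93.5% at Baseline and 19.7% and 20.8% at Knockdown (−74.0 ± 1.89 points, log2 odds −5.96, SE 0.248, edgeR adjusted p = 1.29e-10). NOG, which encodes the BMP antagonist noggin, went from 92.2% and 89.4% to 22.9% and 14.7%, and SOX18, a vascular transcription factor, from 96.7% and 95.4% to 26.8% and 28.9%. These falls matched the size of the largest promoter falls. Of the 8 bodies, 7 lay within 500 bp of a UMR in both Baseline libraries, and of the 8 bodies with the smallest fall 0 did. Over all methylated bodies 10482 (66.2%) lay within 500 bp of a UMR or overlapped one in both. These kept a median of 55.0%, against 53.9% in the other bodies, the opposite order to that of promoters. A UMR anywhere along a body counts here, and body length was not held fixed. Single highly methylated gene body CpGs kept less beside a UMR (41.7% at less than 250 bp, 56.6% at 5000 bp or more), as promoter CpGs did.

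The smallest falls were in PCDHB5, IRX2, KLF18, POU3F4, GOLGA6L1, TAC1, ENSG00000291312 and NHLRC1. IRX2, a homeobox gene (chr5:2745845-2750677, 292 CpGs), held 69.1% and 72.2% at Baseline and 46.8% and 53.2% at Knockdown (−20.6 ± 2.39 points). TAC1, the precursor of substance P, went from 73.4% and 73.6% to 47.7% and 48.4%. GOLGA6L1 (93.1% and 96.1% to 70.6% and 71.2%) rests on 51 to 77 reads per library and belongs to a family of near-identical copies, so its reads may come from more than 1 gene, and PCDHB5 (73.4% and 68.5% to 51.8% and 48.2%) also has close relatives.

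Intergenic intervals of at least 10 kb were lower in 16878 of 16888 cases (99.9%), with a median change of −38.0 points and 52.3% left. The interval between VN1R9P and ENSG00000290931 (chr22:17022571-17036569) went from 85.7% in both to 33.8% and 34%, and that between MYL2 and LINC01405 (chr12:110921444-110934589) from 86.9% and 87.2% to 35.4% and 35.8%. The interval between ENSG00000276822 and CLEC18B on chromosome 16 went from 93.9% and 92.5% to 43.0% and 39.8%. These 3 had the largest falls. The smallest were between DEFB109A and ENSG00000270074 on chromosome 8 (77.9% and 78.5% to 58.5% and 65.3%), between ENSG00000237717 and ENSG00000290714 on chromosome X (85.1% and 82.2% to 61.5% and 69.2%) and between CLK2P1 and CCDC126 on chromosome 7 (72.7% and 71.6% to 45.3% and 46.6%). The first pair of these rest on 82 to 185 reads per library over 10 kb or more, so few of their CpGs could be read, and the DEFB109A interval was no longer called lower without Baseline R1, Baseline R2 or Knockdown R1.

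Gene lists were read by the members with methylated promoters, set beside 52.7% left over all methylated promoters and 88.4% of promoters lower. Of the DNA methylation machinery, 18 of 20 tested promoters were lower, the exceptions being PCNA, the replication clamp (0.259% and 0.533% at Baseline), and TET3 (0.571% and 0.334%). TET2, which oxidises methylcytosine, had 85.5% and 81.6% at Baseline and 25.0% and 30.9% at Knockdown (33.6% left). The promoter window of UHRF1 itself went from 90.7% and 91.7% to 52.7% and 48.9%, that of USP7, a deubiquitinase bound to DNMT1, from 91.6% and 89.6% to 48.6% and 36.2%, and that of DNMT1 from 30.5% and 23.4% to 9.62% and 12.9%. The 4 methylated promoters of the list kept a median of 43.2%. Their windows sit at the annotated 5′ gene end, which need not be the start that these cells use. A high level in them, as for UHRF1 and USP7, therefore does not show that a start in use was methylated.

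Genes of the interferon and double-stranded RNA response had 38 of 39 tested promoters lower, and their 19 methylated promoters kept a median of 45.4%. OAS1, a sensor of double-stranded RNA, went from 96.7% and 93.4% to 48.6% and 37.8%, and IFI27, an interferon-induced gene, from 96.8% and 97.2% to 54.8% and 54.3%. ISG15, a ubiquitin-like modifier, was near 0 throughout (0.195% and 0.472% against 0.204% and 0.122%, adjusted p = 0.269 by edgeR). The 19 methylated HOX promoters kept a median of 48.7%, though HOXD9 (96.5% and 99.3% to 62.4% and 75.4%) kept 70.3% and HOXA2 (97.3% and 97.6% to 44.1% and 55.8%) 51.2%.

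Genes silenced in colorectal cancer (47 of 50 lower) and germline genes (45 of 45) kept medians of 57.1% and 57.0% over 32 and 36 methylated promoters. GATA4, an endoderm transcription factor, went from 97.1% and 97.7% to 48.8% and 41.2%, whereas HORMAD1, a meiotic chromosome protein, went from 96.8% and 98.3% to 68.5% and 60.6%. ESR1, the oestrogen receptor, differed between populations at Knockdown (42.5% and 64.6%) over 7 CpGs. Among Wnt antagonists, 14 of 15 promoters were lower, and 10 methylated ones kept a median of 53.1%. NOTUM (96.6% and 95.9% to 37.8% and 33.6%) and FRZB (95.4% and 96.9% to 66.0% and 60.7%) had nearly the same Baseline and differed at Knockdown, with 37.1% and 65.9% left.

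The 87 methylated promoters of chromosome 19 zinc finger genes kept a median of 58.1%, and 233 of 244 tested were lower. ZNF358 went from 98.2% and 99.0% to 56.1% and 58.6%. Imprinted genes (39 of 40 lower) kept 53.1% over 16 methylated promoters, with DIRAS3 at 97.9% and 97.0% against 65.2% and 64.4%. Colon epithelium genes (37 of 37) kept 53.5% over 19, with ASCL2, an intestinal stem cell factor, at 96.0% and 98.7% against 57.4% and 55.6%. Clustered protocadherins (51 of 52) kept 52.1% over 22 and keratin-associated proteins (68 of 68) 52.9% over 37.

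Olfactory receptors (226 of 238 lower) kept 49.8% over 72 methylated promoters, replication-dependent histones (44 of 68) 53.9% over 23 and defensins (23 of 23) 48.9% over 14. Of the 68 histone promoters, 34 were under 10% at Baseline. Late cornified envelope and SPRR genes (23 of 24) had 1 methylated promoter, SPRR2F, which kept 44.1%. Of cytosolic ribosomal protein genes 56 of 77 promoters were lower and 36 were under 10% at Baseline, and their gene bodies kept a median of 39.1%, against 53.9% over all bodies. Cell cycle and housekeeping genes had 25 of 32 lower, 13 being under 10% at Baseline. Medians of lists are descriptions and were not tested against other promoters.

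By chromosome, the mean change ran from −31.8 points on chromosome 18 to −37.7 points on chromosome 22, a spread of 5.91 points over the 22 autosomes. R1 and R2 gave chromosome 18 −31.5 and −32.2 points (67.7% in both to 36.3% and 35.5%) and chromosome 22 −37.3 and −38.2 points (78.6% in both to 41.3% and 40.4%). Chromosome X was near the low end, 67.7% in both to 36.1% and 35.5%. Of the 28499 windows of 100 kb tested, 28485 were lower (99.95%, which rounds to 100%) and the median change was −36.4 points. R1 and R2 changes correlated over windows with r = 0.981 and over autosomes with r = 0.9998.

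Chromosomes with more of their CpGs in Baseline PMDs had the smaller change in points (Pearson r = 0.914, Spearman rho = 0.897 over the 22 autosomes), and the change followed the Baseline level (r = −0.873). Chromosome 18 had 51.7% of its CpGs in PMDs and chromosome 17 17.0%. As a share of Baseline, however, loss ran from 45% on chromosome 4 to 49.1% on chromosome 19 and was related to CpG density (r = 0.769 with CpGs per kb) and hardly to the PMD share (r = 0.132). Over chromosomes, denser thus went with more loss, whereas single CpGs with close neighbours lost less. Highly methylated HMD CpGs without another CpG within 35 bp kept 48.3% on chromosome 19 and 52.9% on chromosome 4. The reason for the opposite orders was not tested. Chromosomes share the libraries, and CpG density and gene density move together between them, so these are descriptions.

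**Figure D5:**
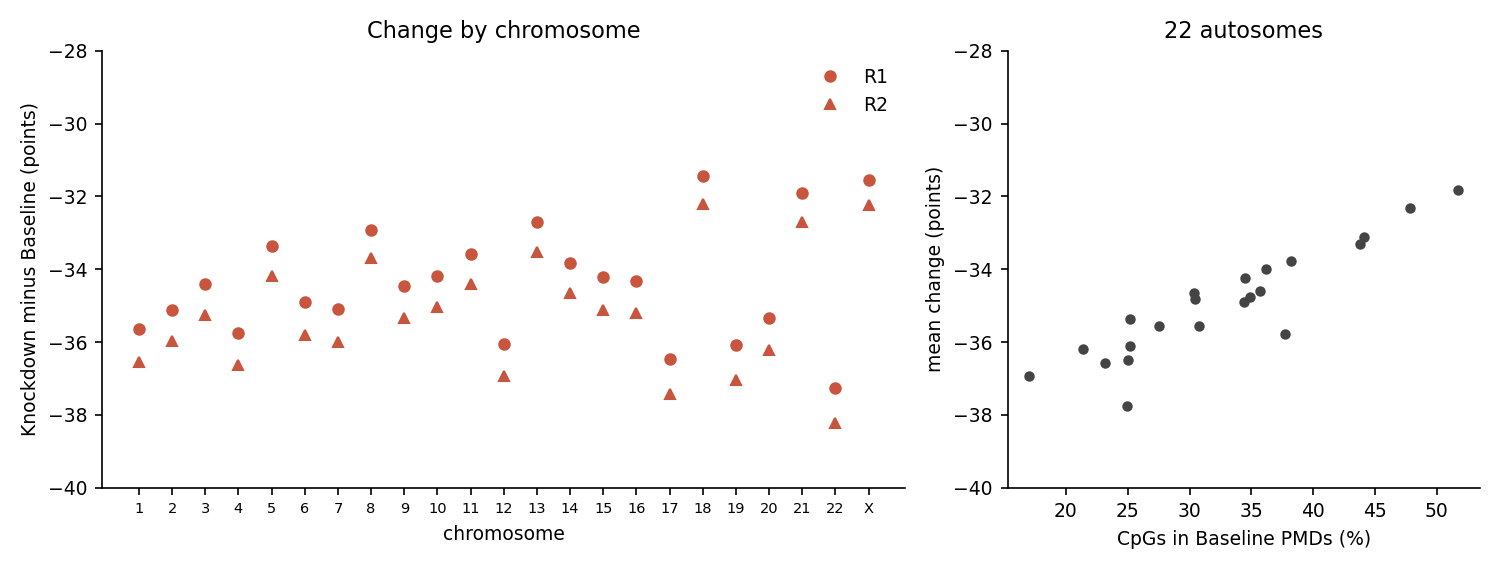
Left, Knockdown minus Baseline (points, y axis) by chromosome, R1 (circle) and R2 (triangle). Right, the mean change (points) against the share of CpGs in Baseline PMDs (%) for 22 autosomes. Chromosome 18, with 51.7% of CpGs in PMDs, changes by −31.8 points and chromosome 22 by −37.7 points.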

How the data were processed

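Whole-genome bisulfite sequencing libraries of shDNMT1 HCT116 populations R1 and R2 were used. The authors mapped the bisulfite reads to hg38 in Meth10X (1.2), per the labels, and deposited raw counts per CpG, the methylated and the total reads, without a coverage filter. Duplicate handling was not given in the sources used here. Unused sample columns numbered 0. The authors also deposited domain lists called with MethylSeekR (1.0), with HMDs as the bedtools (2.25.0) complement at a mean mC of at least 0.8. Values computed here needed 5 reads in each library for single CpGs, and 5 CpGs and 50 reads for regions.

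Differences were taken within R1 and within R2. The pairing comes from the study's methods, which compare plates grown in parallel. Deviations from the group means correlated between Baseline and Knockdown of the same population with r = 0.0127 over 28496 windows. Regions were tested with edgeR (4.0.16, glmQLFit and glmQLFTest, R 4.3.3) on methylated and unmethylated counts with a library effect and a population block, in a fit of the 6 shDNMT1 libraries. The Recovery libraries entered only to estimate the spread. The test was tried on simulated data. limma (3.58.1) with a pseudocount of 1 was an alternative. Other work used Python 3.11.15, numpy 2.4.6, pandas 2.3.3 and scipy 1.17.1.

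Named promoters and gene bodies had at least 10 CpGs and a Baseline of 70% or more, and were the 8 with the largest fall in the population where it was smaller and the 8 with the smallest fall in the population where it was larger. For intervals 3 each way were named, and up to 5 promoters called higher by size of change (TSTD2, the sixth, was named after its values were seen). From each gene list the members with the highest and lowest Baseline were named; some of them, and 1 promoter stretch, are not reported here. TET2, TET3 and DNMT1 were named after their values were seen. The experiment, its gene lists and its tests were chosen with earlier results of these data known. Depth limits precision as given in the text, and intervals cover counting error only, since reads carry no molecular identifiers.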

Additional observations from a re-analysis of the deposited data

How the results depend on the processing

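With 4 libraries and no second assay used here, the values rest on 2 populations, and levels of single CpGs rest on few reads. Of 132 alternative values for the main results, 90 kept their direction and stayed near the value reported, 41 moved and 1 reversed. Requiring 1 read gave a promoter change of −16.6 points, a hypomethylated promoter share of 82.1%, a difference of gene body and intergenic change of −1.46 points and a spread over autosomes of 5.66 points. Requiring 10 reads gave −14.9 points, shares of 87.0% (promoters), 78.4% (gene bodies) and 80.4% (intergenic), −1.97 points and 6.09 points. Pooling reads gave changes of −33.9 (all), −13.7 (promoter), −35.6 (gene body) and −33.3 points (intergenic), a difference of −2.32 points and a spread of 6.58 points. CpGs highly methylated in both Baseline libraries gave −43.1, −49.1, −42.8 and −43.4 points, a reversed difference of 0.545 points and a spread of 4.36 points. A loss of 50 points gave shares of 53.7%, 38.2% and 39.6%. A promoter from 250 bp upstream to 50 bp downstream gave a change of −6.90 points, a share of 79.3%, 4554 promoters lower of 14287 tested, and 2 methylated promoters that fell less and 1852 that fell more than the genome. limma gave 3 promoters and 53 bodies that fell less, and a fit of 15 libraries 3 and 2. Against the median change of methylated regions of each kind, an alternative chosen after seeing the data, 1649 promoters fell less and 1421 more, and 6386 and 6248 bodies, a near balance that this centring sets by construction. Where a value moved, the cause was not tested beyond what the alternative changes.

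Without the replicate block, that is without pairing R1 and R2, 16489 promoters, 18799 gene bodies, 16877 intervals and 28485 windows were lower, 10 methylated promoters fell less and 4701 more than the genome, and 77 and 14816 bodies. It changed no other call of the regions named. Leaving out 1 library or population at a time gave 15277 to 15825 promoters, 18779 to 18786 bodies, 16865 to 16872 intervals and 28473 to 28477 windows lower. Methylated promoters that fell less numbered 3 to 7 (6 without Baseline R2, 5 without Knockdown R1, 3 without Knockdown R2) and those that fell more 3749 to 4191. Bodies that fell less numbered 41 (without Knockdown R1) to 95 and more 14389 to 14716. Changes ranged from −35.4 to −34.6 (all), −15.8 to −15.4 (promoter), −36.8 to −35.9 (gene body) and −35.2 to −34.3 points (intergenic), their difference from −1.65 to −1.59 and the spread from 5.81 to 6.01 points. Hypomethylated shares ranged from 84.5 to 85.6%, 76.3 to 77.9% and 78.4 to 79.8%.

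Among promoters near 0 and not called, the log2 odds change reversed for PCNA (0.0774 without Baseline R2, the other libraries giving values down to −1.29), DKK1 (−0.773 to 0.138 on leaving out 1 library, above 0 without Knockdown R2, and 0.00479 with the shorter promoter), SDHA (−0.636 without Baseline R1, up to 3.51 without Baseline R2) and ZNF524 (−0.448 without Baseline R2, 0.241 without Baseline R1, 0.118 without Knockdown R2 and 1.18 with the shorter promoter). Calls were lost on leaving out 1 library for the DVL1, PATL2, SF3A2, SLC25A25 and NCBP1 promoters (higher) and for the DEFB109A interval and the DEFB115, KRTAP22-1, LCE1C and MAEL promoters (lower). Calls were also lost with the shorter promoter for DVL1, PATL2, SF3A2, SLC25A25, NCBP1, CA2 and MAEL and in the fit of 15 libraries for SF3A2, SLC25A25, NCBP1 and DEFB115, whereas limma added PCDHGA10 and RPL26.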
